A study of Mus musculus with 10 samples.

Results

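Toll-like receptors are membrane proteins with which cells of innate immunity detect microbial molecules. The genes described are Tlr1 to Tlr9 and Tlr13, taken by symbol from a table of 22329 mouse genes, which holds all 10 of them. The family was chosen by symbol but selected on the TPM of these same tumours, since results of the comparison between control and cytokine mRNA were known when it was picked. Its differences between groups are therefore a description and not a test. Tlr11 and Tlr12, the other mouse family members in the table, were left out of that choice and are given once for reference.

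The tumours were grown from B16F10, a mouse melanoma line, after cells were placed under the skin of C57BL6/J mice. Each received a single injection of mRNA into the tumour, 80 µg in all, and was taken for RNA sequencing 7 days afterwards. In the 5 control tumours (numbered 1 to 5) the mRNA encoded luciferase. In the 5 cytokine tumours (6 to 10) it was a mixture of 4 mouse mRNAs, 20 µg each, for single chain IL-12, IL-15sushi, GM-CSF and IFNalpha. Both groups therefore carried injected mRNA, and tumours without it were not analysed here. Values are in TPM, a share of the library corrected for transcript length, so levels of different genes can be set side by side.

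The receptors fall into classes by where they meet their ligand. Those of the endosome read nucleic acids taken up by the cell: Tlr3 reads double-stranded RNA, Tlr7 single-stranded RNA, Tlr9 DNA with unmethylated CpG, and Tlr13, which humans lack, bacterial ribosomal RNA. Tlr8 is a sensor of single-stranded RNA in human cells. Those of the surface read microbial lipids and proteins: Tlr2 pairs with Tlr1 or Tlr6 to bind lipoproteins, Tlr4 binds lipopolysaccharide with Ly96, and Tlr5 binds flagellin. Macrophages, dendritic cells and B cells are the best known carriers of the family, while Tlr3 and Tlr4 are also found on cells of connective tissue and vessels.

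Between 11513 and 12984 genes reached a TPM of 1 in each library, and TPM keeps no sequencing depth, so depth is unknown. Cytokine tumour 7 stood apart: the summed TPM of 7 melanocyte genes was 41.9 there, against 2569 to 16214 in control tumours and up to 16635 in the cytokine tumours (tumour 10). Mitochondrial genes took 16.2% to 27.9% of the TPM in control and 4.44% to 19.2% in cytokine tumours, with tumour 7 lowest and tumour 10 highest of its group. Across 12497 genes tested with limma on log2(TPM + 1), 10.4% were called at an adjusted p under 0.05. The calls split into 7.41% of genes higher and 3.02% lower with cytokine mRNA, so 71.0% of called genes were higher; it was 60.0% when the 50 most abundant genes were dropped before scaling, 55.2% when genes of the mitochondrial genome and of antigen receptor segments were dropped, and 57.5% with library quality weights.

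Among the endosomal sensors, Tlr9, Tlr8, Tlr13 and Tlr7 were higher in most cytokine tumours, while Tlr3 was not. Tlr9 was at 13.6, 8.95, 13.2, 5.93 and 0.813 TPM in control tumours 1 to 5 and at 70.6, 232, 95.6, 37.2 and 14.5 TPM in cytokine tumours 6 to 10. Every cytokine tumour lay above every control tumour, but tumour 10 exceeded control tumour 1 by less than 1 TPM. The control mean was 8.50 ± 5.34 TPM (SD, n = 5) and the cytokine mean 89.9 ± 85.1 TPM, or 54.5 TPM without tumour 7. Tlr8 was at 14.9, 10.8, 9.39, 5.58 and 0.580 TPM in control and at 98.0, 151, 53.3, 46.3 and 20.6 TPM in cytokine tumours. These groups did not overlap either, with means of 8.23 ± 5.42 and 73.8 ± 51.3 TPM.

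Tlr13 was at 6.24, 3.54, 3.79, 5.02 and 0 TPM in control and at 60.8, 143, 29.9, 25.03 and 5.88 TPM in cytokine tumours. Here 4 cytokine tumours were above all controls, and tumour 10 lay inside the control range. The cytokine mean of 53.0 ± 54.2 TPM fell to 30.4 TPM without tumour 7, against a control mean of 3.72 ± 2.34 TPM. Tlr7 was at 27.9, 11.2, 36.8, 14.6 and 5.19 TPM in control and at 85.6, 112, 67.1, 73.7 and 14.5 TPM in cytokine tumours. Again tumour 10 was the exception, at the level of control tumour 4, and the means were 19.1 ± 12.9 and 70.5 ± 35.7 TPM.

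Tlr3 was the most abundant receptor of the control tumours and stayed within the same range in the cytokine tumours. Its values were 105, 58.0, 67.1, 71.6 and 97.6 TPM in control and 60.4, 79.2, 86.7, 71.7 and 86.7 TPM in cytokine tumours, which all lie inside the control range. The means were 79.8 ± 20.3 and 76.9 ± 11.1 TPM, and the difference of -0.03 ± 0.21 (SE) on the log2(TPM + 1) scale took either sign among the alternative settings, from -0.17 to 0.14. In the reference annotation Tlr3 overlaps a predicted gene on the opposite strand, Gm45542. The labels do not say whether strand was used in counting.

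**Figure D1:**
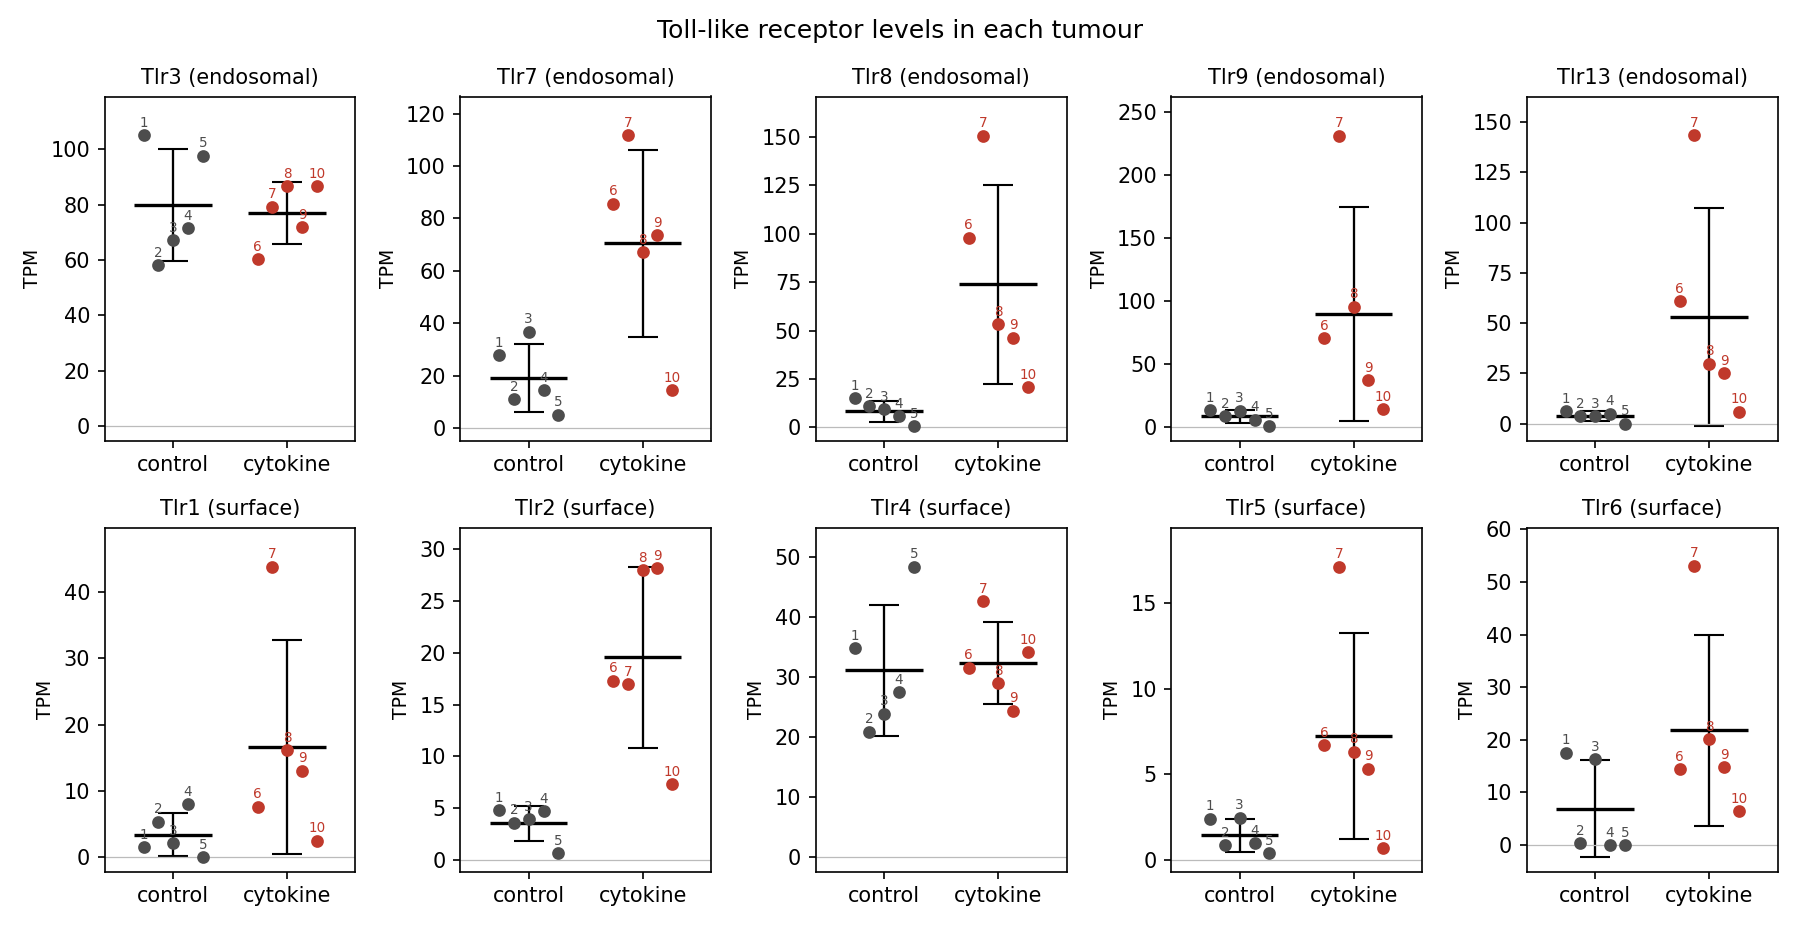
TPM of each receptor (vertical axis, linear, 1 scale per panel) in the 5 control and 5 cytokine mRNA tumours; points carry the tumour number, the long bar is the mean and the whisker the SD. Tlr8, Tlr9 and Tlr2 have all cytokine tumours above all controls, tumour 7 is the highest point in 7 of the 10 panels, and all cytokine values of Tlr3 and Tlr4 lie inside the control range.

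Of the surface receptors, Tlr2 separated the groups, Tlr1, Tlr5 and Tlr6 were higher in some cytokine tumours, and the Tlr4 values of the groups overlapped fully. Tlr2 was at 4.81, 3.57, 3.92, 4.71 and 0.625 TPM in control and at 17.3, 17.0, 28.0, 28.2 and 7.33 TPM in cytokine tumours. All cytokine tumours exceeded all controls, and here tumours 8 and 9, not tumour 7, were the highest. The means were 3.53 ± 1.71 and 19.6 ± 8.77 TPM. Tlr4 was at 34.8, 20.9, 23.9, 27.5 and 48.4 TPM in control and at 31.6, 42.6, 29.0, 24.4 and 34.1 TPM in cytokine tumours. Those groups overlapped fully, with means of 31.1 ± 11.0 and 32.3 ± 6.76 TPM, and the log2 difference of 0.09 ± 0.26 (SE) ranged from -0.05 to 0.26 among the alternative settings.

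Tlr1 was at 1.55, 5.36, 2.13, 8.01 and 0 TPM in control and at 7.66, 43.8, 16.2, 13.0 and 2.50 TPM in cytokine tumours. Of the cytokine tumours, 3 were above all controls, and the group mean of 16.6 ± 16.1 TPM was 9.85 TPM without tumour 7; the control mean of 3.41 ± 3.23 TPM was 2.26 TPM without tumour 4. Tlr6 was at 17.6, 0.365, 16.4, 0 and 0 TPM in control and at 14.4, 53.1, 20.1, 14.8 and 6.37 TPM in cytokine tumours. Its controls were split, with tumours 1 and 3 at the level of most cytokine tumours and the other 3 at or near 0. The Tlr6 means were 6.86 ± 9.23 TPM in control (4.18 TPM without tumour 1 and 4.48 TPM without tumour 3) and 21.8 ± 18.2 TPM in cytokine tumours (13.9 TPM without tumour 7). Tlr1 and Tlr6 are close paralogs: of the 2976 windows of 50 bases in the longest annotated Tlr1 transcript, 15.3% also occur in Tlr6, so their values could share reads, and no other pair of the family shared such a window.

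Tlr5 was the scarcest receptor in both groups, at 2.41, 0.857, 2.46, 0.963 and 0.393 TPM in control and at 6.71, 17.1, 6.31, 5.31 and 0.675 TPM in cytokine tumours. As with Tlr13 and Tlr7, 4 cytokine tumours were above all controls and tumour 10 was within their range. Its means were 1.42 ± 0.954 and 7.23 ± 6.04 TPM, the second of them 4.75 TPM without tumour 7. Tlr11 and Tlr12, mouse receptors of protozoan profilin, had means of 0.655 ± 0.708 and 3.66 ± 5.75 TPM in control and of 4.60 ± 4.42 and 3.66 ± 2.48 TPM in cytokine tumours. Without tumour 1 the control means were 0.417 TPM for Tlr11 and 1.13 TPM for Tlr12, and without tumour 7 the cytokine mean of Tlr11 was 2.79 TPM.

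On the log2(TPM + 1) scale, which understates the change of scarce genes, the differences (cytokine minus control) of the endosomal sensors were 3.13 ± 0.76 (SE) for Tlr13, 3.07 ± 0.66 for Tlr8, 3.03 ± 0.74 for Tlr9 and 1.84 ± 0.59 for Tlr7, beside the value near 0 for Tlr3. Those of the surface receptors were 2.44 ± 0.93 for Tlr6, 2.18 ± 0.44 for Tlr2, 1.90 ± 0.71 for Tlr1 and 1.50 ± 0.55 for Tlr5, beside the value near 0 for Tlr4. With pseudocounts of 0.1 and 5 in place of 1, the values were 4.02 and 1.33 for Tlr6, 2.70 and 1.16 for Tlr1, 1.99 and 0.81 for Tlr5, and 3.94 and 2.27 for Tlr13, so the order of the receptors by difference depends on the pseudocount. With the pseudocount of 1, each class held 4 genes with a difference more than 2 SE above 0 and 1 gene within 1 SE of 0. The median difference was 3.03 for the endosomal and 1.90 for the surface class, against -0.18 for all genes tested, and the difference between the classes was not tested. All 10 receptors passed the filter on low values, but Tlr5 and Tlr6 reached a TPM of 1 in only 2 control tumours each.

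In the limma fit across all genes 4 of the 10 receptors (Tlr2, Tlr8, Tlr9 and Tlr13) were called higher and 0 lower. Of all genes, 7.41% were called higher and 3.02% lower. At an unadjusted p under 0.05 the receptor counts were 8 and 0, and of all 12497 genes tested 1804 were higher and 2009 lower. The groups did not overlap in 3 (Tlr2, Tlr8 and Tlr9), where 5.45% of all genes tested were higher with no overlap. The count of called receptors was 2 without any 1 of control tumours 2, 4 or 5 or cytokine tumour 8. It was 1 without tumour 6 and 7 without tumour 10. In the fits with 2 receptors called, 3.94% to 4.62% of all genes were called in either direction, against 10.4% with all tumours. That share was 2.94% without tumour 6 and 25.9% without tumour 10. Tlr2 was the receptor called in each of the 10 fits with 1 tumour left out. Without tumours 6 and 7 together limma called none of the receptors and 0.16% of all genes. At an unadjusted p under 0.05 that fit had 4 receptors higher, and of all 12497 genes 1452 were higher and 1024 lower. The signs held in that fit for all but Tlr3 and Tlr4, with log2 differences of 2.39 for Tlr8, 2.34 for Tlr9, 2.21 for Tlr2 and 2.17 for Tlr13.

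**Figure D2:**
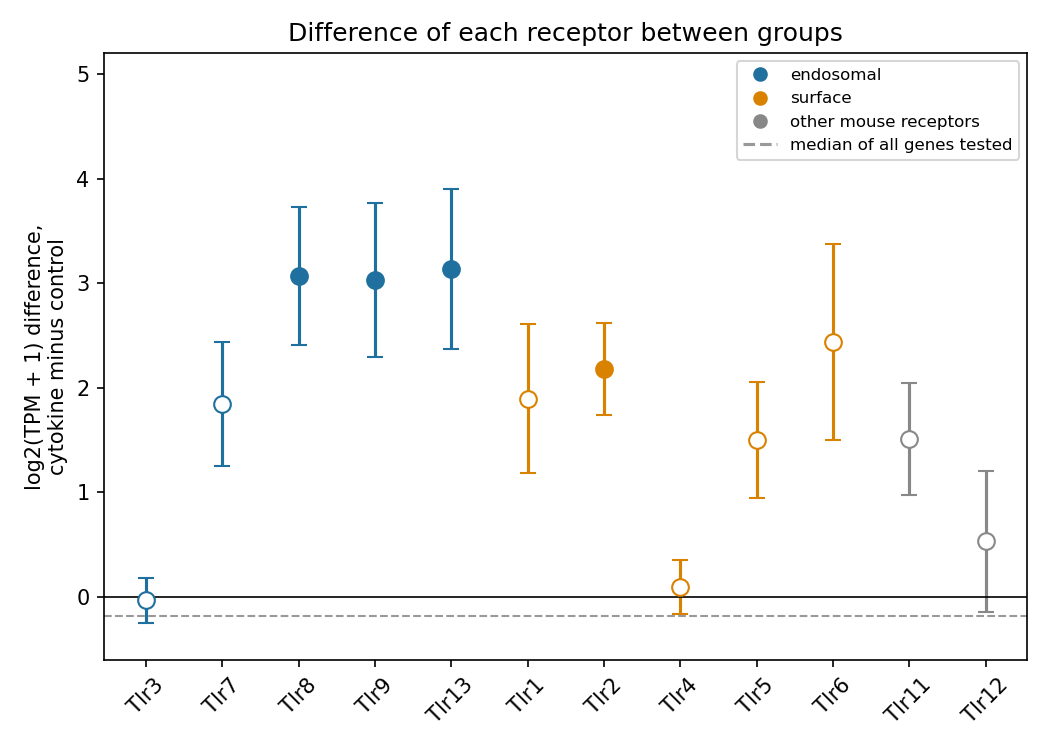
Difference of each receptor on the log2(TPM + 1) scale, cytokine minus control mRNA (vertical axis), with its SE from limma; filled points passed the threshold of the fit across all genes and open points did not, and grey marks Tlr11 and Tlr12. Tlr8, Tlr9 and Tlr13 lie near 3, Tlr2 at 2.18, and Tlr3 and Tlr4 at 0 within their SE; the dashed line is the median of all genes tested, -0.18.

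The order of the levels changed with these differences. In control tumours Tlr3 led with a mean of 79.8 TPM, above Tlr4 at 31.1 TPM in all 5 tumours and with no overlap of their ranges. Below them came Tlr7 (19.1 TPM), Tlr9 (8.50 TPM), Tlr8 (8.23 TPM), Tlr6 (6.86 TPM), Tlr13 (3.72 TPM), Tlr2 (3.53 TPM), Tlr1 (3.41 TPM) and Tlr5 (1.42 TPM), and from Tlr4 down each neighbour overlapped the next in range. In cytokine tumours the order was Tlr9, Tlr3, Tlr8, Tlr7, Tlr13, Tlr4, Tlr6, Tlr2, Tlr1 and Tlr5. Every pair of neighbours overlapped there, and Tlr9 exceeded Tlr3 in 3 of the 5 tumours.

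The summed TPM of the 10 receptors was 229, 124, 179, 144 and 154 in control tumours and 453, 890, 432, 340 and 193 in cytokine tumours. Tumour 10 was within the control range, and the other 4 were above it. Tlr3 alone made up 48.7% ± 9.47 (SD, n = 5) of that sum in control and 21.6% ± 13.9 in cytokine tumours. Tlr7, Tlr8, Tlr9 and Tlr13 together made up 23.3% ± 11.7 and 56.1% ± 17.2, with 28.7% in tumour 10 and 53.6% to 71.6% in the other cytokine tumours. The share of all 5 endosomal sensors was closer between groups, at 72.0% ± 2.64 in control and 77.7% ± 3.89 in cytokine tumours. A share can fall while the level stays the same, as for Tlr4, whose part went from 19.2% ± 7.18 to 8.66% ± 5.13.

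**Figure D3:**
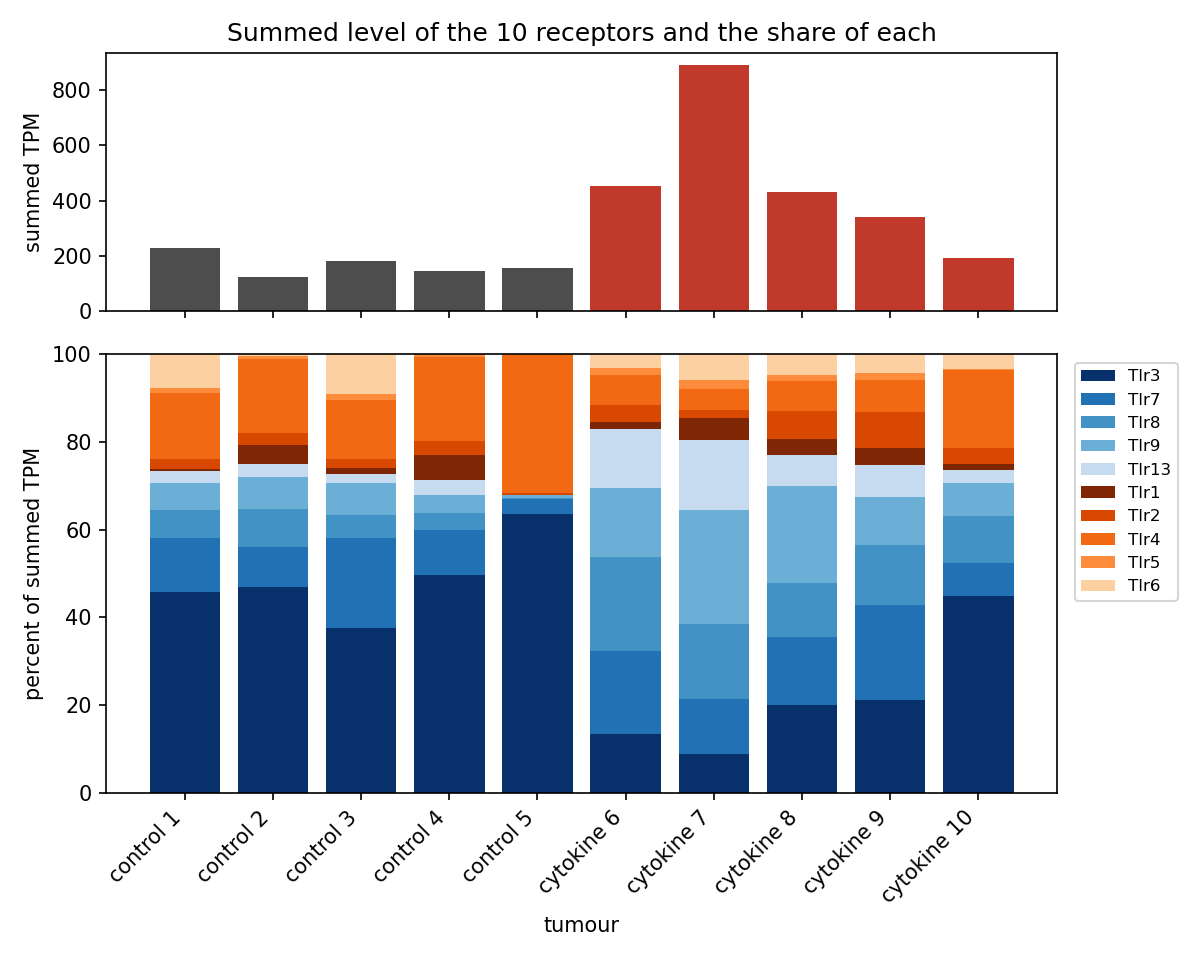
Upper panel, summed TPM of the 10 receptors in each tumour (bars from 0; grey control, red cytokine mRNA); lower panel, percent of that sum held by each receptor, blue for endosomal and orange for surface. Tlr3 holds 37.5% to 63.6% in control tumours, and Tlr7, Tlr8, Tlr9 and Tlr13 hold 53.6% to 71.6% in tumours 6 to 9 but 28.7% in tumour 10.

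Promoter sequence is shown for the 4 receptors past the threshold and for Tlr3, so that they can be read beside the nucleic acid sensor whose difference was near 0. RefSeq promoters on GRCm38.p6 matched 8 of the 10 receptors; Tlr4 and Tlr7 had none in that table. Each line gives the 250 bases before the annotated start, 5′ to 3′ on the strand of the gene. Capitals mark matches on either strand to the PU.1 core GAGGAA (a myeloid and B cell factor), to the gamma-activated site TTCNNNGAA (bound by STAT factors), to the interferon-stimulated response element or to the NF-kappaB consensus.
Tlr9, chr9:106222348-106222597, plus strand: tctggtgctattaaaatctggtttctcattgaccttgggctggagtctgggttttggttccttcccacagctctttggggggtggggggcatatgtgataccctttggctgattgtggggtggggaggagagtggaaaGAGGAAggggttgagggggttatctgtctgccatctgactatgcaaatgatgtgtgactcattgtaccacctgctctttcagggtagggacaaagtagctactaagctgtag
Tlr13, chrX:106143025-106143274, plus strand: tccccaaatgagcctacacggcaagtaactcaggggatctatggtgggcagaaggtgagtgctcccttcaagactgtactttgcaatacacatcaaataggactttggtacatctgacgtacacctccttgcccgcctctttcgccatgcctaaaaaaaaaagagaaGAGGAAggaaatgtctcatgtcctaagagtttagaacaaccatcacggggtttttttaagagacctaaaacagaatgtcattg
Tlr8, chrX:167264330-167264579, minus strand: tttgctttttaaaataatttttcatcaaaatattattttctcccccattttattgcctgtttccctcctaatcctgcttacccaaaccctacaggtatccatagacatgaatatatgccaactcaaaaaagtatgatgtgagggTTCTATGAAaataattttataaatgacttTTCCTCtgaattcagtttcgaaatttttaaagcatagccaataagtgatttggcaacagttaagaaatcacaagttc
Tlr2, chr3:83841609-83841858, minus strand: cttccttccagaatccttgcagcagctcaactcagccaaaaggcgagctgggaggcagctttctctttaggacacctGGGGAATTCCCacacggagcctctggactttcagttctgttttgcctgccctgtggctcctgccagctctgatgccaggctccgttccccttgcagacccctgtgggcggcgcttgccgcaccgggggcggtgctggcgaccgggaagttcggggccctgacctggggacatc
Tlr3, chr8:45410381-45410630, minus strand: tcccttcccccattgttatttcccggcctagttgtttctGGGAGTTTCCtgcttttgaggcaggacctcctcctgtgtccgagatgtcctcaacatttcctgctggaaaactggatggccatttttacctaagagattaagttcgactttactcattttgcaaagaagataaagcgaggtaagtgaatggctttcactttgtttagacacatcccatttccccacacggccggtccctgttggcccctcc

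The PU.1 core was in the windows of Tlr9 (from 112 bases before the start), Tlr13 (83), Tlr8 (77) and, among receptors not called, 1 of the Tlr1 promoters (23), and 23.3% of all 32851 promoters of that length held it. A gamma-activated site, found in 7.02% of promoters, was in the Tlr8 window (from 106 bases before the start) and in the other Tlr1 promoter (228). Tlr2 had a pair of overlapping NF-kappaB matches, from 173 and 172 bases before the start, and Tlr3 had 1 from 211, where 3.90% of promoters had any. The interferon-stimulated response element, in 2.98% of promoters, was found, among the receptors, in 1 of the Tlr6 promoters alone, at a pair of positions 116 and 110 bases before the start. These are matches of letters, and none of them was tested for binding.

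Markers of macrophages and of leukocytes in general were also higher in cytokine tumours, while no endothelial or melanocyte gene was called. Of 9 macrophage and monocyte genes, all tested, 7 were called higher by limma and 0 lower (9 and 0 at an unadjusted p under 0.05). For this and the other marker lists, the share of all genes called was 7.41% higher and 3.02% lower. At the unadjusted threshold 1804 of all 12497 genes were higher and 2009 lower. Their summed TPM was 135 to 523 in control and 664 to 6605 in cytokine tumours, with tumour 10 lowest and tumour 7 highest, as for most receptors. Cd68, a lysosomal protein of macrophages, rose from 122 ± 25.7 to 997 ± 584 TPM (SD, n = 5; limma adjusted p = 0.00994). The 4 pan-leukocyte genes were all called, with sums of 41.2 to 324 TPM in control and 279 to 2515 TPM in cytokine tumours; the lowest control sum was that of tumour 5, which had the lowest control value in 7 of the 10 receptors. In bulk tissue, more cells of a type and more RNA per cell cannot be told apart, and the part of either in the receptor values was not tested.

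B cells and plasmacytoid dendritic cells are known carriers of Tlr7 and Tlr9, and most of their marker genes were too scarce to be tested. The 6 B cell genes summed to 1.26 to 4.83 TPM in control and 2.41 to 19.5 TPM in cytokine tumours. Just 1 of them (Cd79a) passed the filter and limma called it in neither direction, with means of 1.32 ± 0.772 and 1.69 ± 1.83 TPM (adjusted p = 0.961). Of the 5 B cell genes not tested, Cd79b was at 0.798 ± 0.393 and 4.87 ± 4.01 TPM, with 3 cytokine tumours above all controls. Pax5 was at 0.204 ± 0.0810 and 1.33 ± 1.41 TPM, with all 5 above all controls, and these genes are named after their values were seen. Of 6 plasmacytoid dendritic cell genes, 3 were tested and 1 rose, which was Siglech, named after its values were seen. The other tested genes, Cox6a2 and Tcf4, were not called. Cox6a2 was at 15.4 ± 23.6 and 9.79 ± 7.42 TPM (limma adjusted p = 0.751), with a log2 difference of 0.52. Tcf4 was at 221 ± 152 and 167 ± 33.4 TPM (limma adjusted p = 0.714), with a log2 difference of -0.21. The sums of that list, 126 to 538 TPM in control and 135 to 246 TPM in cytokine tumours, were mostly Tcf4, a transcription factor also made elsewhere. Of 6 conventional dendritic cell genes, 2 of 5 tested rose, with sums of 4.40 to 18.3 and 15.4 to 84.4 TPM. Of 6 neutrophil genes, 2 of 2 tested rose (0.771 to 8.70 and 6.57 to 176 TPM), and of 6 T cell genes 5 of 5 (0.610 to 30.4 and 55.3 to 3436 TPM).

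Endothelial genes, from a cell type that carries Tlr3 and Tlr4, were called in 0 of 5 (0 at an unadjusted p under 0.05 as well). Of all genes 10.4% were called, so a count of 0 in so short a list lies near that share. The endothelial genes summed to 71.5 to 102 TPM in control and 58.4 to 116 TPM in cytokine tumours. Keratinocyte genes summed to at most 1.94 and 8.30 TPM, with Dsg3 at 0 in all tumours, and none was tested. Melanocyte genes were called in 0 of 7 (0 at an unadjusted p under 0.05), a count also near the share of all genes. All 7 had a log2 difference below 0, with a median of -1.87 and wide SEs, as for Tyrp1 at -2.05 ± 1.76. Their sums were 2569 to 16214 TPM in control and 41.9 (tumour 7) to 16635 TPM in cytokine tumours. Without tumours 6 and 7, 2 of the 7 differences were above 0. Calls among these marker lists, 21 in all, numbered 6 without tumour 6 and 8 without tumour 8. They numbered 10 to 13 without any 1 of tumours 2, 4, 5, 7 or 9. Of all genes, 926 were called higher with all tumours, 321 without tumour 6 and 398 without tumour 8. That count was 452 to 653 without any 1 of tumours 2, 4, 5, 7 or 9. All 21 marker calls were lost in limma without tumours 6 and 7, where 19 of all genes were called higher. At an unadjusted p under 0.05 that fit had 23 marker genes higher, and 1452 of all 12497 genes. The part of these cells in the receptor values was not tested.

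Set against the mean log2(TPM + 1) of the 9 macrophage and monocyte genes, the picture of the family differed. Control tumours had a list mean of 4.51 ± 0.96 (SD, n = 5) and cytokine tumours one of 7.18 ± 1.22, a difference of 2.67. Relative to it Tlr13, Tlr8 and Tlr9 were higher in cytokine tumours by 0.46, 0.40 and 0.36 log2 units, each with SDs of 0.32 to 0.51 within groups. The other 7 were lower relative to the list: Tlr3 by -2.70, Tlr4 by -2.58, Tlr5 by -1.17, Tlr7 by -0.82, Tlr1 by -0.77, Tlr2 by -0.49 and Tlr6 by -0.23. The same 3 were higher and the same 7 lower relative to the 4 pan-leukocyte genes. Against the macrophage and monocyte genes, SDs within groups reached 1.77 for Tlr6, 0.96 for Tlr1 and 0.95 for Tlr2, more than their differences. Only the pseudocount of 1, which understates the change of scarce genes, was used for these relative values. The signs of the smaller differences are therefore uncertain.

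**Figure D4:**
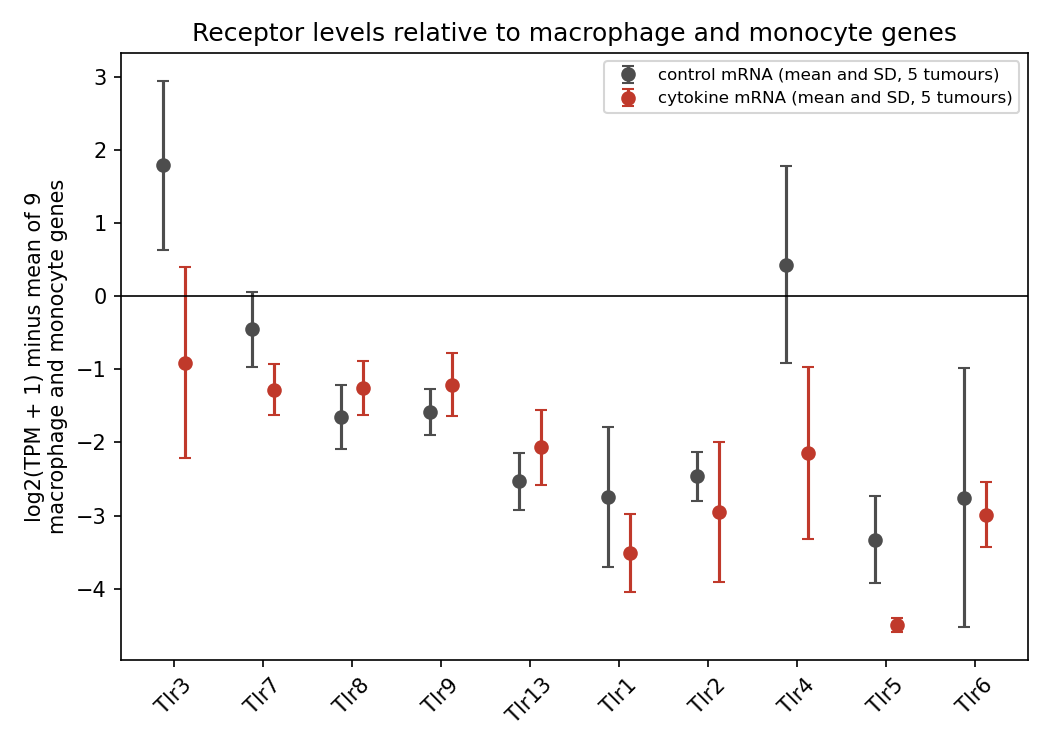
Level of each receptor relative to the mean of 9 macrophage and monocyte genes, on the log2(TPM + 1) scale (vertical axis; mean and SD of 5 tumours; grey control, red cytokine mRNA). Tlr13, Tlr8 and Tlr9 are higher by 0.46, 0.40 and 0.36 in cytokine tumours, while Tlr3 and Tlr4 are lower by -2.70 and -2.58 in cytokine tumours.

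Genes with the closest profile over the 10 tumours were sought among 12108 tested genes, as those with the smallest root mean square difference between log2(TPM + 1) profiles, each centred on its own mean. For Tlr9 they were Tgfbi (0.25 log2 units), Csf1r (0.29) and Il21r (0.29), for Tlr13 Alox5ap (0.19), Evi2b (0.27) and Fyb (0.27), and for Tlr8 Ccl3 (0.27), Serping1 (0.29) and Tbxas1 (0.29). Those of Tlr7 were Fli1 (0.27), Klrb1b (0.31) and Igf1 (0.31). Tlr3 and Tlr4 had the same nearest gene, Trpc4ap (0.14 and 0.21), followed by Pddc1 and Tgfbr1 (0.15 each) for Tlr3 and by Eif3f (0.22) and Tmx3 (0.22) for Tlr4. Among the other surface receptors, near genes included Nuak2 (0.33) and Ctsc (0.35) for Tlr2, and the nearest were Spon1, Ttc39c and Ang (0.21 to 0.22) for Tlr5. Tlr1 lay nearest to Nrgn (0.39), Il4ra (0.45) and Grk3 (0.49). Tlr6 had no gene nearer than Apobec3 (0.68), followed by Camk1d (0.76) and Rasgrp1 (0.77). Profiles were not scaled, so genes that vary little, such as Tlr3 and Tlr4, lie near other genes that vary little. Whether near genes are expressed together was not tested.

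Toll-like receptors signal through adaptors with a shared domain, chiefly Myd88 and, for Tlr3 and Tlr4, Ticam1, to kinases and ubiquitin ligases that switch on NF-kappaB and interferon regulatory factors. A wider list of 62 genes added accessory proteins, endosomal proteases and nucleases, negative regulators and response genes. Of its 58 tested genes 25 rose and 0 fell, where 7.41% of all genes were called higher and 3.02% lower. These shares also stand beside the count of each list below. At an unadjusted p under 0.05, 37 were higher and 1 (Tab1, named for this count) lower, where 1804 of all 12497 genes were higher and 2009 lower. Of the 25, 4 were adaptors, kinases or ubiquitin ligases and 8 were response genes, which other inflammatory signals also switch on. The median log2 difference was 1.21 over the 58 genes and -0.18 over all genes tested. The count of 25 was 10 without tumour 6 and 16 without tumour 8. All genes called higher, 926 with all tumours, numbered 321 without tumour 6 and 398 without tumour 8. Without tumours 6 and 7 together limma called none of the 58, and of all genes 19 higher and 1 lower. At an unadjusted p under 0.05, 30 of the 58 were higher and 1 lower. Of all 12497 genes, 1452 were higher and 1024 lower in that fit at the unadjusted threshold.

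Accessory proteins that bring receptors to their place or ligand rose in 5 of 10. Cd14, which hands lipopolysaccharide to Tlr4, was at 0.487, 3.78, 2.62, 3.002 and 0.444 TPM in control and at 19.9, 9.55, 24.98, 21.0 and 6.32 TPM in cytokine tumours. These did not overlap, and Cd14 rose by 2.52 ± 0.47 (SE) on the log2 scale (limma adjusted p = 0.0145), whereas Tlr4 itself had the difference near 0 given above. Cd180, a relative of the receptors found on B cells and myeloid cells, rose from 27.6 ± 19.1 to 326 ± 280 TPM (211 TPM without tumour 7; limma adjusted p = 0.0199), and its partner Ly86 from 21.9 ± 13.6 to 111 ± 61.1 TPM (limma adjusted p = 0.0318). Cd36, a scavenger receptor that helps Tlr2 with Tlr6, rose by 2.50 ± 0.53 (limma adjusted p = 0.0182).

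Unc93b1, which carries the endosomal sensors from the endoplasmic reticulum and is named here after its values were seen, rose from 41.2 ± 22.5 to 156 ± 96.6 TPM (limma adjusted p = 0.0399). That call was lost without any 1 of tumours 2 to 9. Hsp90b1, the chaperone that folds most of the family, was at 447 ± 43.3 and 344 ± 102 TPM (limma adjusted p = 0.247). Slc15a4, an endolysosomal transporter needed for Tlr7 and Tlr9 signals, was at 120 ± 63.8 and 452 ± 571 TPM, or 204 TPM without tumour 7 (limma adjusted p = 0.247). The calls of Cd180 (without tumour 6 or 8), Cd36 (without tumour 6) and Ly86 (without any 1 of tumours 2 and 4 to 9) were also lost.

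Proteases that cut endosomal receptors into their active form rose in all 4 listed, while none of the 5 nucleases was called (0 higher by limma; Pld4 was the only 1 at an unadjusted p under 0.05). Ctss, a cathepsin of antigen-presenting cells, was at 148, 86.1, 112, 82.7 and 11.0 TPM in control and at 1967, 2041, 1227, 1180 and 277 TPM in cytokine tumours. The lowest cytokine value exceeded the highest control, and Ctss rose by 4.01 ± 0.71 (SE) on the log2 scale (limma adjusted p = 0.0125). Lgmn, the asparagine endopeptidase, rose from 94.8 ± 32.4 to 476 ± 289 TPM (limma adjusted p = 0.0188), Ctsb from 340 ± 20.1 to 1196 ± 383 TPM (limma adjusted p = 0.00994) and Ctsl from 554 ± 75.2 to 1325 ± 429 TPM (limma adjusted p = 0.0172). Of the nucleases, which trim the nucleic acids that the sensors read, Pld3 was at 145 ± 43.7 and 138 ± 58.1 TPM (limma adjusted p = 0.812) and Pld4 at 36.5 ± 19.1 and 223 ± 120 TPM (limma adjusted p = 0.0570). Pld4 passed without tumour 10, and the calls of Lgmn and Ctsl were lost without tumour 6. Rnaset2a and Rnaset2b are near copies, and the authors' counting could have split their reads.

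Among adaptors 1 of 5 tested rose, Pik3ap1, which links the receptors to phosphoinositide kinase. It went from 4.04 ± 2.33 to 34.2 ± 28.5 TPM (22.4 TPM without tumour 7; limma adjusted p = 0.0275), a call lost without any 1 of tumours 2 to 6 or 8. Myd88 was at 46.3, 12.5, 10.4, 17.8 and 7.96 TPM in control and at 25.9, 52.6, 41.9, 36.3 and 28.4 TPM in cytokine tumours. Control tumour 1 was the exception here, lying within the cytokine range, and the log2 difference of 1.16 ± 0.41 did not pass (limma adjusted p = 0.0895); without tumour 1 the control mean went from 19.0 to 12.2 TPM and the gene was called. Ticam1, the adaptor of Tlr3, was at 24.7 ± 5.81 and 36.7 ± 8.59 TPM (limma adjusted p = 0.142).

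Among 16 kinases and ubiquitin ligases, 3 rose. Map3k8, the kinase that links the receptors to ERK, rose from 3.17 ± 1.72 to 31.9 ± 21.0 TPM (limma adjusted p = 0.0114). Ikbke, a kinase that activates interferon regulatory factors, rose from 10.8 ± 4.31 to 39.4 ± 18.0 TPM (limma adjusted p = 0.0177; lost without tumour 6). Irak2, a kinase of the Myd88 complex, rose by 1.21 ± 0.33 (limma adjusted p = 0.0386), a call lost without any 1 of tumours 1 to 9. Irak1 was at 76.9 ± 22.5 and 106 ± 22.1 TPM (limma adjusted p = 0.198), and Tab2, an adaptor of the kinase Map3k7, at 177 ± 31.9 and 302 ± 102 TPM (limma adjusted p = 0.0931; called without tumour 10).

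Of 9 regulators that dampen the pathway 4 rose. Irak3, an inhibitory member of the Irak family made by macrophages, was at 3.61, 4.30, 3.71, 1.97 and 2.21 TPM in control and at 55.0, 57.9, 27.1, 26.8 and 5.97 TPM in cytokine tumours. Its groups did not overlap, and it rose by 2.80 ± 0.52 (SE) on the log2 scale (limma adjusted p = 0.0141). Tnfaip3, the ubiquitin-editing enzyme known as A20, rose from 5.49 ± 1.47 to 31.4 ± 14.9 TPM (limma adjusted p = 0.0120), Trafd1 from 39.1 ± 23.9 to 279 ± 111 TPM (limma adjusted p = 0.00961), and the phosphatase gene Dusp1 from 20.5 ± 2.76 to 61.8 ± 27.4 TPM (limma adjusted p = 0.0145). Tollip was at 33.3 ± 4.48 and 31.3 ± 11.0 TPM (limma adjusted p = 0.715), and the ubiquitin ligase gene Rnf216 at 70.7 ± 20.4 and 63.9 ± 17.8 TPM (limma adjusted p = 0.745).

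Genes commonly switched on by these receptors, and by other inflammatory signals, rose in 8 of 9 tested. Tnf was at 3.21, 2.30, 2.16, 0.410 and 0 TPM in control and at 43.9, 60.8, 47.7, 38.6 and 9.07 TPM in cytokine tumours. The groups did not overlap, with tumour 10 again lowest of its group, and limma gave an adjusted p = 0.00798. The chemokine Ccl4 rose by 3.15 ± 0.57 (limma adjusted p = 0.0129), the acute phase gene Saa3 by 3.01 ± 0.75 (limma adjusted p = 0.0306) and Ptgs2, the inducible cyclooxygenase, by 3.44 ± 0.93 (limma adjusted p = 0.0391; mean of 82.2 TPM, and 39.9 TPM without tumour 7). The calls of Saa3 and Ptgs2 were lost without any 1 of tumours 1 to 9. Nfkbiz, a nuclear cofactor of NF-kappaB, was at 15.5 ± 5.45 and 40.2 ± 26.9 TPM (limma adjusted p = 0.102; called without tumour 10). Il6, Il1a and Il12b were below the filter. Il1a was at 0.190 ± 0.287 TPM in control and 7.69 ± 6.77 TPM in cytokine tumours, 4 of which were above all controls; every control tumour had Il6 at 0, its highest cytokine value was 1.23 TPM, and Il12b, a subunit gene of the injected IL-12, reached 3.94 TPM.

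**Figure D5:**
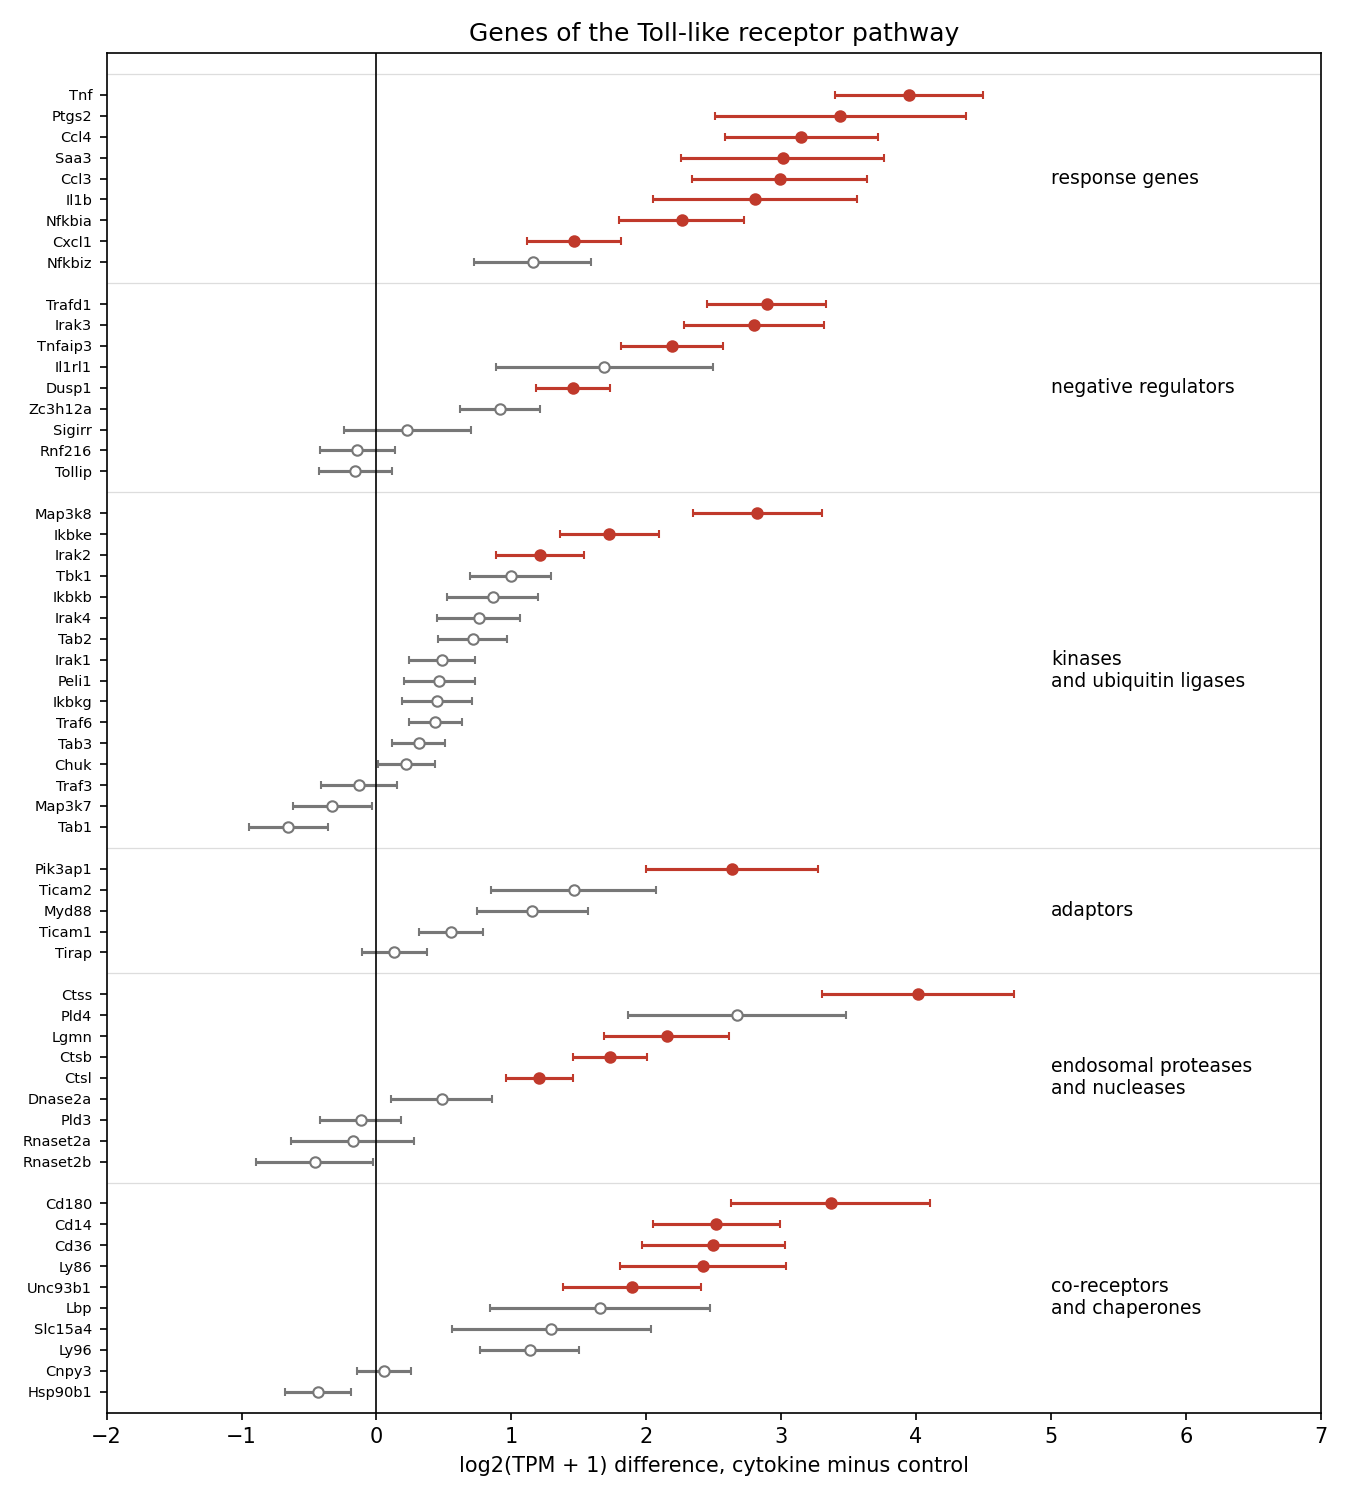
Difference of each tested pathway gene on the log2(TPM + 1) scale, cytokine minus control mRNA (horizontal axis), with its SE from limma; filled red points were called at an adjusted p under 0.05 and open grey points were not. Called genes are on the right in every group, with Ctss at 4.01 and Tnf at 3.95 farthest, and no gene is called on the left.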

How the data were processed

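RNA was sequenced from 10 tumours, 5 per group; per the labels' protocols, polyA RNA from DNase-treated extracts was made into stranded NuGEN libraries. The authors deposited 1 table of TPM, with a column per tumour. STAR and GRCh38, a human build, are named in the submitters' processing notes, so the build behind the values is unclear; neither annotation nor counting method is stated there. TPM hold no depth, so no counting interval is given. Columns were matched to tumours by title, and no column was left unused.

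The 12497 genes that reached 1 TPM in 5 or more tumours were compared on log2(TPM + 1), a pseudocount of 1, with limma 3.58.1 in R 4.3.3 (eBayes with a trend, 2-sided, Benjamini-Hochberg over all genes tested). In simulated data with 200 genes changed, the step called 10% of 2-fold and 65% of 4-fold changes, with 1 false call among 76. A gene that was not called may therefore still differ between groups. Members and lists were chosen with earlier results of these data known. Named pathway genes are up to 4 called genes with the largest change and the 2 most abundant not called per list; markers named are among the 2 most abundant per list, except where said, and 1 gene of similar profile is not reported here. Alternatives were pseudocounts of 0.1 and 5, other filters, 3 scalings, no trend, library quality weights, and tumours left out. The labels name separate tumours, with no batch, so p-values measure the spread between them.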

Additional observations from a re-analysis of the deposited data

Results flagged for a closer look

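A group of 5 tumours was singled out where the gap between its highest or lowest value and the nearest other value was over 0.71 of the group's range. Chance does this in about 1 of 20 groups if values are normally distributed, which was not checked for these TPM. Among the receptors and their relatives this held in 1 of 24 groups: control tumour 1 listed Tlr12 at 13.8 TPM, with the next control at 2.68 TPM. Among the named pathway genes it held in 5 of 64 groups. Cytokine tumour 7 had Slc15a4 at 1442 TPM, with the next at 439 TPM, and Irak1 at 144 TPM, with the next at 103 TPM. Control tumour 5 had Pld4 at 2.64 TPM, where the other controls started at 40.8 TPM. Control tumour 1 had Myd88 at 46.3 TPM, with the next at 17.8 TPM. Cytokine tumour 10 had Saa3 at 10.5 TPM, where the other cytokine tumours started at 167 TPM.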

How the results depend on the processing

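No paired analysis was possible because the tumours of the groups share no replicate number. Over the settings run, the log2 differences of the receptors moved by less than 1 SD between tumours. That SD is a wide measure. It was 1.73 for Tlr6, whose difference went from 2.44 to 4.02 with a pseudocount of 0.1. The endosomal and surface medians were 2.17 to 3.30 and 1.16 to 2.55 (2.51 to 3.44 and 1.44 to 2.36 with 1 tumour left out). With the filter at a TPM of 5, Tlr5 was not tested and the surface median was not computed. The median of all genes, -0.18, became -0.03 under median-ratio scaling, -0.28 when the 50 most abundant genes were dropped and -0.32 when mitochondrial and antigen receptor genes were dropped.

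Of all genes, 1304 were called (926 higher, 378 lower): 846 (170 lower) with no filter, 2769 (1593 and 1176) with library quality weights, 20 (19 and 1) without tumours 6 and 7, and 367 to 3238 (321 to 1644 higher, 46 to 1594 lower) with 1 tumour left out, lowest without tumour 6 and highest without tumour 10. Lower genes numbered 569 and 667 under those last scalings. Of the receptors, 7 were called with library quality weights, 0 without tumours 6 and 7 and 1 to 7 with 1 tumour left out. Of the pathway genes, 25 rose, 0 without tumours 6 and 7 and 10 to 36 with 1 tumour left out; of marker genes, 21, 0 and 6 to 24. Tlr2 was called in 20, Tlr8 in 19, Tlr9 in 15 and Tlr13 in 11 of 21 settings, the reported one included. The cause of these changes was not tested. Depth is unknown, and values near 0 TPM are the least certain.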
